A study of Mus musculus with 2 samples.

Results

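The Trim genes encode tripartite motif proteins, a family of ubiquitin ligases, and were examined here for binding of the transcription factor Tcf1 in naïve CD8+ T cells of the mouse. The family was taken as every protein-coding gene of the GENCODE vM1 annotation of mm9 whose symbol is Trim followed by a digit, which gave 67 genes out of 22241. Trim30b carries 2 gene identifiers in that annotation and was counted once. Tcf1 ChIP-seq had been performed with an antiserum from rabbits immunised with full-length recombinant Tcf1, in 1 WT library and 1 control library titled Tcf1-deficient. Both came from splenic cells sorted as GFP+ TCRbeta+ CD62Lhi CD44lo-med CD8+, from C57BL/6 mice, with males and females both used in the study. The control's genotype label reads Tcf1-/-Lef1-/-, and the series' design text describes hCD2-Cre with a Rosa26 GFP reporter and floxed Tcf1 and Lef1, whereas the study's methods give Cd4-Cre and a floxed Tcf7 gene alone for this library, so whether the control cells lacked Lef1 is not settled by these sources. WT is the treatment and the control its comparison in the only peak list, which holds 22286 peaks. After duplicate removal, 36938606 WT and 27625250 control fragments were kept. With 1 library per genotype there was no replicate check, no test across genes was made, and counts for Trim genes stand beside the same counts for all protein-coding genes as a description. The list holds no expression, so it shows neither which Trim genes these cells transcribe nor the level of any marker of the sorted cell type.

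A tripartite motif protein carries a RING finger that recruits a ubiquitin-loaded E2 enzyme, then B-box zinc fingers and a coiled coil, and a C-terminal region that chooses the substrate. The commonest C terminus is the B30.2/SPRY domain. Others are a PHD finger with a bromodomain, which reads histones in the nucleus, NHL repeats, and the COS box of microtubule-binding members. Many members act in antiviral defence and in signalling from nucleic acid sensors, and others in muscle, nerve and red cell development. Tcf1, encoded by Tcf7, is an HMG-box factor that binds the Tcf/Lef motif, whose core is ATCAAAG, and is known for its part in T cell development and in keeping naïve and memory CD8+ T cells.

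A Tcf1 peak was described at a Trim gene when its summit lay in the gene body or within 10 kb of either end. A high-confidence peak had a fold enrichment of at least 4 with the study's limits on p and q. The pileup counts the WT fragments that cover a summit, and fold enrichment divides it by the level expected there from the control library, after adding 1 to each. At the lowest control level in the list, 5.42 fragments, this fold needed a pileup of 25. In all, 7 sequences are shown first, to let the description of cores and of the chromosome 7 promoters be followed in the letters. Of these, 4 are windows of 100 bp to either side of the summits of high-confidence Trim peaks that held a Tcf/Lef core there, 2 are the strongest Trim peaks that held no such core, and the last is a stretch shared by 3 Trim promoters. All are from the mm9 reference, the first 6 on its plus strand, with the Tcf/Lef core (or its reverse complement CTTTGAT) in capitals.
Trim33, in an intron 68.6 kb from the start, chr3:103151718-103151918: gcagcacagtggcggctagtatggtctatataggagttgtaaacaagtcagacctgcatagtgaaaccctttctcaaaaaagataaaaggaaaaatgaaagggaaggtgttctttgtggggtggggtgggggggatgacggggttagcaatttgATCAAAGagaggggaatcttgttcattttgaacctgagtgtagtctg
Trim24, in an intron 0.905 kb from the start, chr6:37821616-37821816: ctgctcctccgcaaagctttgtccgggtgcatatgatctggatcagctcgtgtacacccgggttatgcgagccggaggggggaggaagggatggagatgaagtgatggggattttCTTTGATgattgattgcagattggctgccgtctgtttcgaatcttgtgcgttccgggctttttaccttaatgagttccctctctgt
Trim17, 0.167 kb upstream of the start, chr11:58767920-58768120: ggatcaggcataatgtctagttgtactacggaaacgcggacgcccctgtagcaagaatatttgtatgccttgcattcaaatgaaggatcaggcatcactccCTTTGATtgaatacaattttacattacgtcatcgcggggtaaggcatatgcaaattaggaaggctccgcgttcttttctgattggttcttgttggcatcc
Trim26, in an intron 2.95 kb from the start, chr17:36976984-36977184: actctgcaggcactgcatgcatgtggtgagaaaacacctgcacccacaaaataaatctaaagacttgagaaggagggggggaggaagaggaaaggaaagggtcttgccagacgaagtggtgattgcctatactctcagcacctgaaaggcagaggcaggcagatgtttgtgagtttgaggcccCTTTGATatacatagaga
Trim25, 5.58 kb upstream of the start, chr11:88855009-88855209: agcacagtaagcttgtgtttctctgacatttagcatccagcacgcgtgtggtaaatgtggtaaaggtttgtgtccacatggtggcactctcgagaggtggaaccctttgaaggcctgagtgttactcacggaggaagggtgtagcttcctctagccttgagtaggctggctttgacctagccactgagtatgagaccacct
Trim5, 2.77 kb upstream of the start, chr7:111439274-111439474: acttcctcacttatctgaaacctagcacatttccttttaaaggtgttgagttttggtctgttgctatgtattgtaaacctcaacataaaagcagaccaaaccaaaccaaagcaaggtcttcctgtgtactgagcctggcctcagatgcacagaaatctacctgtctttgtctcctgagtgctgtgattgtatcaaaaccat
The stretch shared by the Trim5, Trim12a and Trim12c promoters is written 5′ to 3′ on the strand of the genes, with the Runx core TGTGGTT in capitals.
Shared promoter stretch: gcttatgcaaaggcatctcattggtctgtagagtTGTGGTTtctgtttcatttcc

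Of the 67 Trim genes, 42 (62.7%, exact 95% interval 50.01 to 74.2) had at least 1 deposited peak, where the share among all protein-coding genes was 52.5%. At high confidence, 40 Trim genes (59.7%, 47.0 to 71.5) were bound, against 48.8% of all protein-coding genes. The lower bound of each interval was below the genome-wide share. These intervals cover counting error only and treat neighbouring genes as separate. When genes whose windows overlap were merged, the family fell into 49 loci, of which 30 (61.2%) held a high-confidence peak. Merged loci span longer windows, and the merging was not done for all protein-coding genes, so 48.8% is not the counterpart of 61.2%. The bound windows held 68 distinct high-confidence peaks, and 13 of them lay in the windows of at least 2 Trim genes.

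Most bound members had few peaks. A single high-confidence peak was found at 20 genes, 2 peaks at 7, 3 peaks at 6, 4 peaks at 2, 5 peaks at 3, 6 peaks at Trim7 and 7 peaks at Trim34a, and 27 genes had none. The mean was 1.31 peaks per Trim gene and 0.971 per protein-coding gene. At least 3 peaks were found at 13 of the 40 bound Trim genes (32.5%), against 21.6% of bound protein-coding genes. Several of these 13 shared peaks with a neighbour, as described below, and no test of the difference was made.

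**Figure D1:**
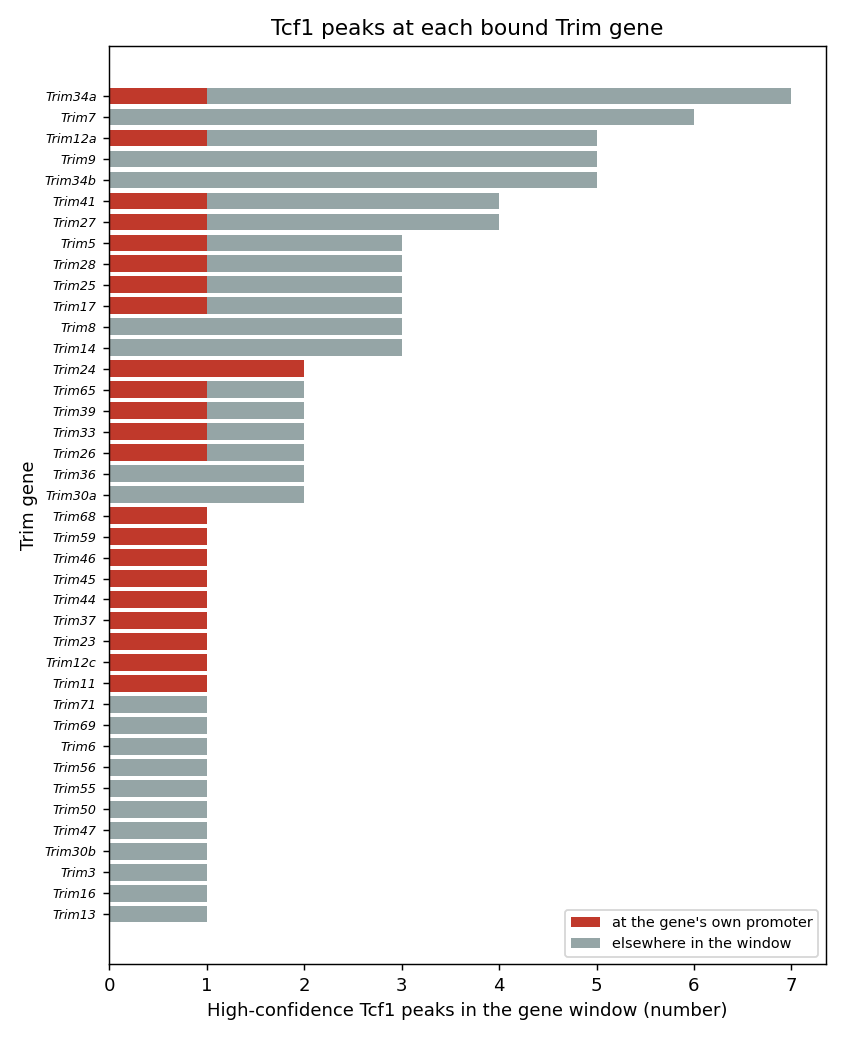
Number of high-confidence Tcf1 peaks in the window of each of the 40 bound Trim genes, with peaks within 1 kb of one of the gene's own starts in red and the rest in grey. Trim34a has 7 and Trim7 has 6, and a peak shared by overlapping windows is counted at each gene.

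At promoters, taken as 1 kb to either side of any annotated start of the gene, the Trim shares lay close to those of all protein-coding genes. A deposited peak was found at 25 Trim promoters (37.3%, 25.8 to 49.99), beside 36.7% over all protein-coding genes. A high-confidence peak was found at 22 (32.8%, 21.8 to 45.4), beside 32.8%. Bound Trim genes had a peak at their own promoter in 22 of 40 cases (55.0%), against 67.3% of bound protein-coding genes. The 22 promoters held 23 peaks, of which 20 had their summit within 0.3 kb of a start. Their median fold enrichment was 6.90 (range 4.05 to 18.5), against 6.54 for high-confidence peaks at all promoters.

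Trim33, also called TIF1γ, a nuclear PHD and bromodomain protein known for its part in TGF-β signalling, had the strongest promoter peak. Its summit lay 0.483 kb inside the gene in a UTR exon, with 118 fragments (95% Poisson interval 97.7 to 141) against a control level of 5.42, a fold enrichment of 18.5. Trim59, a membrane-anchored member, had 98 fragments against 6.69 at 0.070 kb upstream of its start, a fold of 12.9. Trim12a and Trim5, mouse relatives of the retroviral restriction factor TRIM5, followed with 79 and 72 fragments against 5.42, which gave 12.5 and 11.4. The intervals of these 4 pileups overlapped from each one to the next, while that of Trim33 lay wholly above that of Trim5 (56.3 to 90.7).

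Promoter peaks of middle height were found at Trim12c (fold enrichment 8.59, pileup 65), Trim41 (8.46, pileup 64), Trim23 (8.26, pileup 52), Trim25 (8.10, pileup 51), Trim65 (7.95, pileup 50), Trim17 (7.32, pileup 46) and Trim24. Trim25 and Trim65 are ligases of the RNA sensors RIG-I and MDA5, Trim41 binds protein kinase C, and Trim23 carries an ARF domain at its C terminus. Trim24, or TIF1α, a cofactor of nuclear receptors, was the only Trim gene with 2 high-confidence promoter peaks, at 0.136 kb upstream (7.32, pileup 46) and 0.905 kb downstream of its start (6.90, pileup 52).

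The remaining promoter peaks were low. Trim34a had a fold enrichment of 6.13 with 42 fragments and Trim11 5.76 with 36. Trim39 reached 56 fragments and 5.50-fold, with a control level of 9.36, the highest at any high-confidence Trim peak. Trim27, Trim28 and Trim68 each had 33 fragments and a fold of 5.30. Trim28, or KAP1, is the corepressor that KRAB zinc finger proteins recruit. Trim44 (5.27), Trim46 (5.14) and Trim26 (4.83) came next, and Trim37, the gene of mulibrey nanism, and Trim45 stood at the edge of the criteria with 25 fragments and 4.05-fold. Just below that edge, Trim30d had a peak of 23 fragments and 3.74-fold over its start. Trim8 and Trim32 also had promoter peaks only under the minimum, at 3.43 and 2.75.

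**Figure D2:**
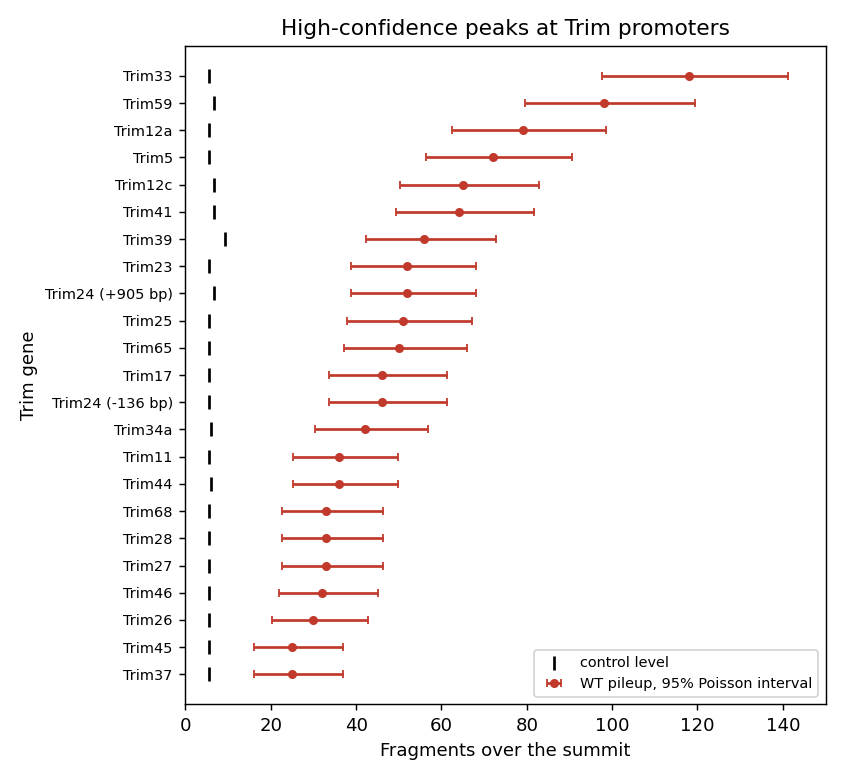
WT fragments over the summit (points, with 95% Poisson intervals) and the control level there (black ticks) for the 23 high-confidence peaks at 22 Trim promoters. Pileups run from 25 at Trim37 and Trim45 to 118 at Trim33, while control levels run from 5.42 to 9.36.

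Of the bound promoters, 6 also served another annotated gene with a start within 1 kb of the summit. At Trim17 the neighbours were Hist3h2a and a histone pseudogene, and the summit was 0.167 kb from the starts of Trim17 and Hist3h2a alike. At Trim23 the summit was nearer to 2410002O22Rik (0.108 kb) than to Trim23 (0.482 kb), and at Trim46 nearer to Krtcap2 (0.043 kb) than to Trim46 (0.086 kb). The Trim11, Trim37 and Trim12a promoters adjoined noncoding transcripts. A peak list cannot assign such a summit to either gene.

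The strongest peak of the family was not at a promoter by this definition. It lay 1.6 kb upstream of Trim8, a regulator of cytokine and NF-κB signalling, as a peak of 1204 bp. It had 218 fragments (190 to 249) against 5.42, a fold enrichment of 34.1. Trim8 had 5 further deposited peaks, of which 2 intronic peaks, at 2.17 and 9.79 kb from the start, passed the criteria with folds of 5.30 and 4.88.

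The second strongest lay 5.58 kb upstream of Trim25 with 162 fragments (138 to 189), a fold of 25.4, inside the annotated gene Gm11496. Its window held none of the cores searched. The third, with 154 fragments (131 to 180) and a fold of 24.1, lay 2.77 kb upstream of Trim5 in an intron of Trim34a, and also fell within the windows of Trim12a and Trim34b. Its window held no core either. The pileup intervals of these 2 peaks overlapped, and the upper bound for Trim25 (189) was just under the lower bound for Trim8 (190).

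**Figure D3:**
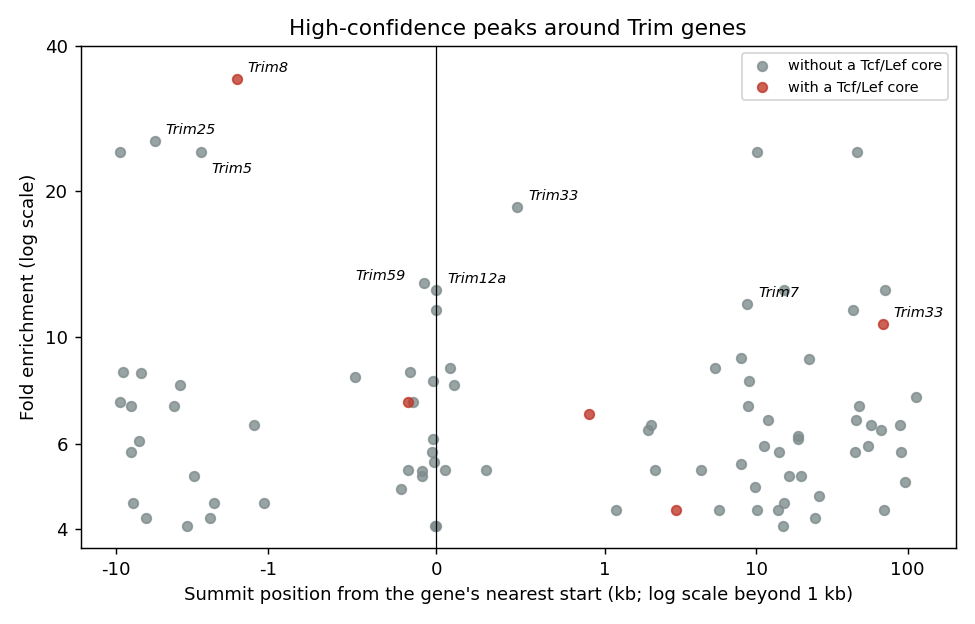
Fold enrichment (log scale) of each high-confidence peak against the position of its summit from the nearest start of the Trim gene (kb, log scale beyond 1 kb, negative upstream), with peaks holding a Tcf/Lef core in red. A peak in several windows appears once per gene, and the peak upstream of Trim8 at 34.1 is the highest.

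Some genes were bound only away from their start. Of the 40 bound Trim genes, 18 had no high-confidence peak at their own promoter. At 12 (30%) every peak was nearest to the start of another protein-coding gene. A high-confidence peak nearest to the gene's own start was found at 28 of 67 Trim genes (41.8%). Over all protein-coding genes this was found at 8350 of 22241 (37.5%), and 10844 of the 22241 had a high-confidence peak in their window. Among the 12 Trim genes, the peaks of Trim23 and Trim46 were at the shared promoters above. The peaks of Trim16, Trim50 and Trim3 lay at the promoters of Fam18b, Nsun5 and Fxc1, with folds of 6.70, 5.14 and 8.41, and that of Trim47 at the promoter of Trim65 (7.95). Trim69 and Trim71 had their single peak nearest to Patl2 and Ccr4, with folds of 5.14 and 5.92, the second 13.5 kb from that chemokine receptor's start. Trim6, Trim30b and Trim34b shared peaks nearest to other Trim genes. Trim9, a ligase of neurons, had 5 peaks of 4.99- to 7.48-fold. Of these, 4 lay in its introns and 1 downstream, the nearest to its own start at 66.9 kb, and all were closest to the start of Pygl.

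Trim7, which binds glycogenin, had 6 high-confidence peaks and none at its promoter. The strongest was downstream of its 3′ end, with 74 fragments and a fold of 11.7, and an intronic peak reached 5.14. Of the 6, 3 lay upstream, towards its divergent neighbour Trim41, 1 of them at the Trim41 promoter. The 65.8 kb of both windows held 7 high-confidence peaks, or 10.6 per 100 kb. Counted per gene, with shared peaks repeated, the figure was 2.71 per 100 kb over all Trim windows and 1.48 over those of all protein-coding genes. A weaker downstream peak (4.36) lay within 1 kb of the start of the lincRNA gene Gm16170. Trim27 had 4 peaks, 2 of them 9.36 and 7.05 kb upstream at folds of 7.32 and 6.08, beside 5.30 at its promoter, with overlapping pileup intervals. Trim14, an adaptor of mitochondrial antiviral signalling, had 3 peaks, of which 1 was at the Nans promoter and 2 intronic ones, at 4.67 and 5.45, each held a Runx core.

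Several peaks assigned to Trim7 and Trim27 held, in part of their window, repeated sequence and the letters of another kind of gene. The B box, an internal promoter element of tRNA genes, was searched by its consensus on both strands within 100 bp of the summit and was found in 5 of 68 Trim peaks (7.35%), beside 0.295% of the 15262 peaks in windows of all protein-coding genes. The 5 Trim peaks with the letters were the Trim7 peaks with folds of 11.7, 5.14 and 4.21, the last also in the Trim41 window, and the Trim27 peaks with folds of 7.32 and 4.36. The share of stretches of 31 bases that occurred elsewhere in the genome was 27.5%, 23.4%, 3.51%, 31.6% and 12.9% in that order, 25.7% at the other upstream Trim27 peak and 29.2% at the peak near Gm16170. The protein-coding rule gave these peaks to the Trim genes, and whether they belong to tRNA genes was not tested.

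The nuclear PHD and bromodomain members were described as a group of 4. Trim24, Trim28 and Trim33 had high-confidence promoter peaks, and Trim66, the fourth, had no deposited peak. The shares over all protein-coding genes were 48.8% bound and 32.8% at the promoter, and 4 genes are too few for a comparison. Trim33 had an intronic peak 68.6 kb from its start, with 67 fragments and a fold of 10.6, that held a Tcf/Lef core 57 bp from its summit. Trim28 had 2 more peaks downstream, at the promoters of Chmp2a (5.30) and Ube2m (9.04). The pileup intervals at Ube2m (43.2 to 73.9) and at the Trim28 promoter (22.7 to 46.3) overlapped.

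Each gene was placed in 1 class at most, and Trim52 was in none. COS box members that also carry a B30.2/SPRY domain are therefore counted under the COS box only. Among the 38 members of the B30.2/SPRY class, 23 (60.5%) were bound, 13 of them at the promoter, with a median fold of 5.76 over 40 distinct peaks. The family as a whole stood at 59.7%, and all protein-coding genes at 48.8%, with 32.8% of each at the promoter. Of the 5 members with a MATH, ARF, filamin or transmembrane C terminus, Trim13, Trim23, Trim37, Trim45 and Trim59, all 5 were bound and 4 at the promoter. The exception was Trim13, an endoplasmic reticulum protein, with an intronic peak of 40 fragments and 6.39-fold 1.95 kb from its start. The COS box members were bound at 4 of 8, with Trim36, a microtubule-binding member, reaching 68 fragments and 8.98-fold in an intron, and the NHL members at 2 of 4, Trim3 and Trim71, neither of these at its promoter. Of 7 members with no further named domain, 3 were bound, Trim8, Trim44 and Trim56. These shares rest on few genes and were not compared by a test.

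Of 18 members known from antiviral defence and innate sensing, 13 (72.2%) were bound, 8 of them at the promoter, with a median fold of 6.13 over 25 distinct peaks. Over all protein-coding genes the shares were 48.8% and 32.8% and the median fold 6.77, and over the whole Trim family 59.7% and 32.8% with a median of 5.92. The list includes the neighbouring Trim5, Trim12, Trim30 and Trim34 genes, which share peaks. Trim56, a ligase tied to the sensor adaptor STING, had 1 peak of 51 fragments and 8.10-fold in a UTR exon 9.01 kb from its start. Trim21, the cytosolic antibody receptor, and Trim38 had no deposited peak, and neither had Trim30c. Of the 4 members of striated muscle, only Trim55 (MuRF2) had a peak, of 25 fragments and 4.05-fold in an intron. Trim63 (MuRF1), Trim54 (MuRF3) and Trim72, which acts in membrane repair, had none.

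The largest cluster, from Trim6 to Trim30d on chromosome 7 (chr7:111357307-111666363 with its flanks), holds 10 Trim genes in 309 kb and had 10 high-confidence peaks, or 3.24 per 100 kb. The per-gene figures given above were 2.71 for all Trim windows and 1.48 for those of all protein-coding genes. In the direction from Trim6 to Trim30d, the first peak was at the Trim34a start (6.13). Then came the Trim5 promoter (11.4) and peaks 2.77 and 4.13 kb upstream of it (24.1 and 7.17), a peak in a Trim12a coding exon (6.54), a peak 1.19 kb inside Trim12a (4.36) and the Trim12a promoter (12.5). Last were the Trim12c promoter (8.59) and 2 peaks at Trim30a, 1 downstream with 2 Runx cores (5.92) and 1 in an intron (6.23). The annotated Trim34a gene spans Trim5, Trim12a and Trim34b, and 6 of its 7 peaks were nearest to the start of Trim5 or Trim12a. The Trim30b promoter had no deposited peak.

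**Figure D4:**
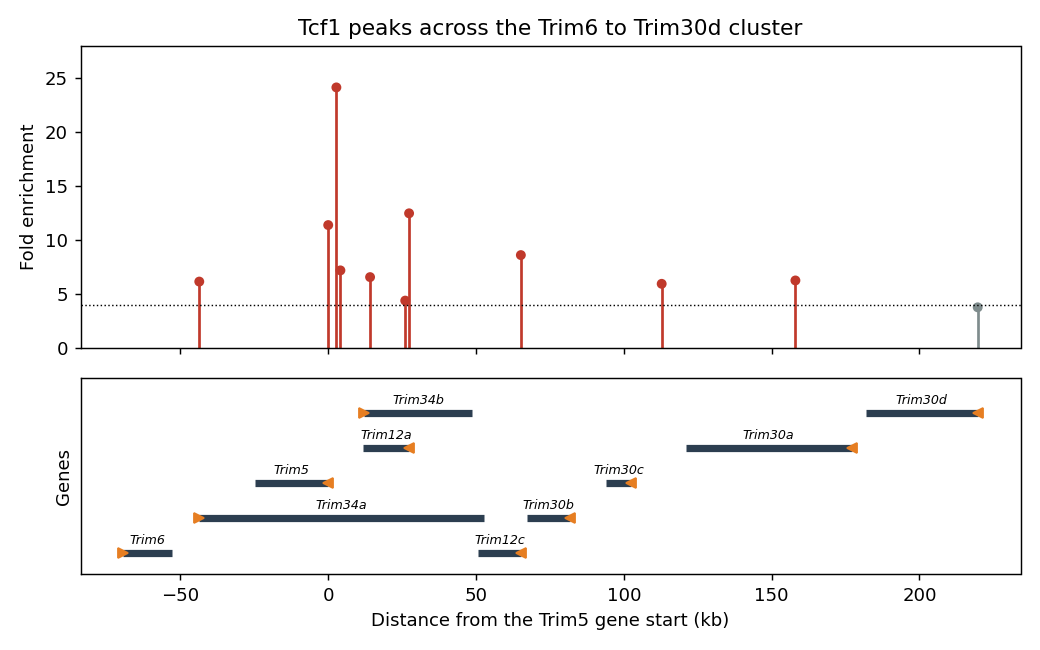
Fold enrichment of each deposited peak across the Trim6 to Trim30d cluster (upper panel, red for high confidence, grey for the peak under the minimum of 4, dotted) and the genes (lower panel, arrowheads at starts), by distance from the Trim5 start in kb. The tallest peak, 24.1, stands 2.77 kb upstream of Trim5, and the 3 promoter peaks at Trim5, Trim12a and Trim12c reach 11.4, 12.5 and 8.59.

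The Trim5, Trim12a and Trim12c promoters are near copies. The stretch of 55 bases printed above was identical in all 3, and its Runx core was centred 63, 21 and 18 bp upstream of the annotated starts. Of the 171 overlapping stretches of 31 bases within 100 bp of a summit, 100% at the Trim5 promoter peak, 93.6% at the Trim12a promoter peak and 81.9% at the weaker Trim12a peak also occurred elsewhere in the genome. These were the only 3 of the 68 windows above 50%. At Trim12c the share was 46.2%, at the strong peak upstream of Trim5 it was 1.75%, and 46 windows had none. How reads that fit several places were treated in this library is not given in the sources used here, and the part of repeated sequence in these pileups was not tested.

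The median fold enrichment of the 68 high-confidence peaks was 5.92 (quartiles 5.10 and 7.99), beside 6.77 for the 15262 high-confidence peaks in windows of all protein-coding genes, and the median pileup was 38.5 beside 44. A fold of at least 10 was reached by 9 of 68 (13.2%), against 26.3%. Of the 68, 15 (22.1%) were within 1 Poisson SD of the fold minimum, so their calls are the least firm. The control level was at its floor under 59 peaks (86.8%, beside 86.3%). By place, 33 summits (48.5%) were within 1 kb of a start of any gene, 24 (35.3%) in a gene body and 11 (16.2%) intergenic, beside 48.0%, 40.01% and 12.0%.

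The Tcf/Lef core ATCAAAG, searched on both strands within 100 bp of the summit, was found in 5 of 68 peaks (7.35%, 2.43 to 16.3), beside 9.42% in windows of all protein-coding genes. The same letters in reverse order, not a Tcf/Lef core, were found in 3 of 68 (4.41%), beside 2.33%. Stretches of the same length 2 kb to either side held the core in 8 of 136 (5.88%, 2.57 to 11.3), beside 3.29%. At Trim genes the intervals for peaks and for these stretches overlapped. The 5 peaks with the core were the peak upstream of Trim8, with a fold of 34.1, and those at Trim33, Trim24, Trim17 and Trim26 printed above. The folds of these 4 were 10.6, 6.90, 7.32 and 4.36. Over the 5 peaks the core was centred between 4 bp, at Trim17, and 87 bp from the summit.

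The letters CGGAAGT of the ETS core occurred in 9 of 68 peaks (13.2%), beside 7.95%. Its reverse order was found in 3, beside 3.75%. In the stretches 2 kb to either side of the summits the ETS core was in 0 of 136, beside 0.563%. Away from starts it was in 5 of 35 Trim peaks (14.3%, 4.81 to 30.3), beside 2.76% of such peaks near all protein-coding genes, and within 1 kb of a start in 4 of 33 (12.1%), beside 13.6%. These 5 were at Trim8, Trim9, Trim13, Trim36 and downstream of Trim39. The Runx core, TGTGGTT, occurred in 8 of 68 (11.8%), beside 13.6%, with the reverse order in 2, and the promoters of Trim5, Trim12a, Trim11 and Trim45 were among them. Stretches 2 kb to either side held the Runx core in 6 of 136 (4.41%), beside 5.33%. The Runx core was in 4 of 35 Trim peaks away from starts (11.4%), beside 21.2%, and in 4 of 33 near starts (12.1%), beside 5.47%. Of the 4 near starts, those at Trim5 and Trim12a lie in the copied stretch printed above and are not separate occurrences. For the Tcf/Lef core the shares away from and near starts were 3 of 35 (8.57%), beside 13.5%, and 2 of 33 (6.06%), beside 5.03%. The lack of a match in such a window says only that these letters are not there.

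Longer windows can hold more summits, and the share bound differed by length. Of 18 Trim genes with windows under 30 kb, 5 (27.8%) were bound, beside 34.1% of all protein-coding genes of that length. At 30 to 40 kb 15 of 20 (75%) were bound, beside 55.2%. At 40 to 60 kb 8 of 14 (57.1%) were bound, beside 59.9%, and at 60 kb or more 12 of 15 (80.0%), beside 59.3%. In all 4 classes the exact interval of the Trim share included the share of all genes. The median window was 35280 bp for Trim genes and 35524 bp for all.

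**Figure D5:**
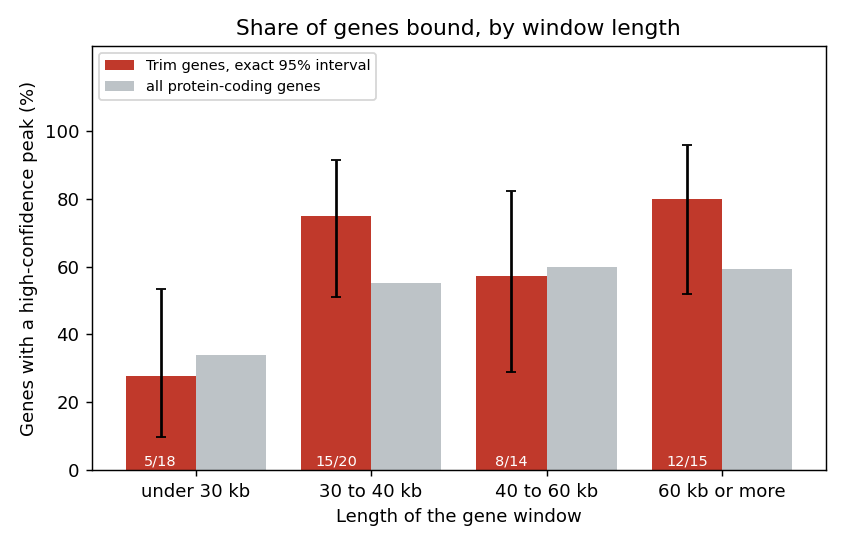
Percent of genes with a high-confidence Tcf1 peak by length of the gene window, for Trim genes (red, exact 95% intervals, counts at the base) and all protein-coding genes (grey). Trim genes run from 27.8% in the shortest windows to 80.0% in the longest, and each interval includes the grey bar.

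No deposited peak was found at 25 Trim genes. Besides those named above they were Trim2, Trim10, Trim15, Trim29, Trim31, Trim35, Trim40, Trim42, Trim43a, Trim43b, Trim43c, Trim52, Trim58, Trim60, Trim61, Trim62, Trim67 and Trim75. Trim10 and Trim58 are members of red cell precursors and the Trim43 genes of the early embryo. Just outside the window rule, high-confidence summits lay 10.3 kb from Trim30c and 10.8 kb from Trim66, and just inside it the summit nearest to Trim6 was 9.33 kb away. On chromosome 17, a cluster of 5 genes from Trim26 to Trim31 had 2 high-confidence peaks, both at Trim26.

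The partners of the family were described from lists of 9 and 10 genes. Of E2 ubiquitin-conjugating enzymes, 7 of 9 were bound, 6 at the promoter, with a median fold of 8.07 over 14 peaks, beside 48.8%, 32.8% and 6.77 for all protein-coding genes. With so few genes, this was not compared by a test. Ube2d2 and Ube2d3, of the E2 group that works with many RING ligases, reached 10.9 and 8.02 at their promoters. Ube2n and its cofactor Ube2v1, which build K63-linked chains, reached 8.12 and 6.86. Ube2d1 had its highest peak, of 14.2, in a gene body. Ube2k (5.94) and Ube2w (4.99) were lower, Ube2v2 had only a peak of 3.74 and Ube2l6, the E2 of ISG15, had none.

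Of the innate sensing partners, 8 of 10 were bound, 7 at the promoter, with a median fold of 5.92 over 14 peaks, beside the same 48.8%, 32.8% and 6.77. Ikbke (8.88), Traf3 (7.42), Ddx58, which encodes RIG-I (6.54), and Irf7 (6.54) were highest at promoters, followed by Mavs (4.83), Traf6 (4.52) and Tbk1 (4.21). Tmem173, which encodes STING, was bound only at the promoter of 1700066B19Rik (17.1). Irf3 had only a peak of 3.74 and Ifih1, which encodes MDA5, had none. Of 4 tripartite motif genes with other names, Mid1 had 5 high-confidence peaks of 22 deposited, reaching 16.3 at its promoter, and Pml had 1 of 6.08 nearest to Stoml1. Mefv and Mid2 had none.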

How the data were processed

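Reads were aligned by the authors to mm9 with Bowtie2 (2.2.5), and peaks were called with MACS2 (2.1.1.20160309 per the file headers) on the WT library against the Tcf1-deficient library, 1 list in all. The deposited signal is the pileup of WT fragments at the summit, unscaled. The deposited ratio is the fold enrichment over the local control level with a pseudocount of 1, and the deposited −log10 p and the deposited score, −log10 q, are the caller's. These p-values compare 2 libraries, not genotypes.

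The control level was computed back as (pileup + 1)/fold enrichment − 1. High-confidence peaks passed the study's limits: p under 1e-05, q under 0.05 and a fold of 4 or more. Summits were assigned to gene windows (gene body with 10 kb on either side) and promoters (1 kb either side of any annotated start) of GENCODE vM1 on NCBIM37, the same build as mm9, with Python 3.11.15, pandas 2.3.3 and numpy 2.4.6. The assignment was tested on simulated summits. A tie for the nearest start went to the first symbol in alphabetical order. Shares have exact Clopper-Pearson 95% intervals (scipy 1.17.1) and pileups exact Poisson ones, which cover counting error only. Members, lists and cores were chosen with earlier results of these data known, and lists rest on general knowledge of the family. Values are given for every Trim gene with a high-confidence promoter peak, for the 10 with the largest fold, for the 10 with most peaks and for those with a Tcf/Lef core. Trim genes with no deposited peak are only named, and list members are given by counts and by the values of those bound. The symbol Mb21d1, a further innate sensing gene, had no match in the annotation. The 31-base count of repeated sequence, the B box search and the promoter stretch shared by 3 genes were added after the values were seen. The sequence under the Trim8 peak and 1 further E2 enzyme are not reported here.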

Additional observations from a re-analysis of the deposited data

How the results depend on the processing

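Of 36 alternatives over 6 results, 24 stayed within the counting interval or within 1.5 times the count, and 12 moved. With gene bodies alone, the share with a deposited peak was 40.3% (27.98% of all protein-coding genes), the share with a high-confidence peak 38.8% (25.1%) and the distinct peaks 37. With each peak given to its nearest protein-coding start only, the shares were 44.8% (41.3%) and 41.8% (37.5%). At a fold of at least 8, 25.4% of Trim genes (24.5%) were bound and 11.9% (11.8%) at the promoter, with 17 peaks, a median fold of 10.6 and 2 Tcf/Lef cores. Within 50 bp of the summit 2 cores were found. Without the pseudocount the median fold was 6.83. Counting each locus of overlapping windows once, an alternative chosen after seeing the data, gave 61.2%, with no such count for all protein-coding genes.

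No paired analysis was possible because each genotype had 1 library, and for the same reason no replicate could be left out. Depth limits the weakest calls, where 25 fragments have an interval of 16.2 to 36.9. Peaks below the caller's limit are not listed, so a gene without a peak may still hold weaker binding.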

Other observations

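By chromosome, for those with at least 4 Trim genes, a high-confidence peak was found at 9 of 10 on chromosome 11 (57.0% of all protein-coding genes there), 5 of 6 on chromosome 3 (49.8%), 11 of 16 on chromosome 7 (42.2%), 2 of 6 on chromosome 17 (56.4%), 1 of 4 on chromosome 4 (51.8%), 1 of 6 on chromosome 9 (49.8%) and 0 of 4 on chromosome 8 (52.6%). Neighbours in a cluster share windows, so these genes are not separate draws and no test was made.

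For the 27 Trim genes without a high-confidence peak, the nearest such summit lay at a median of 42.4 kb from the gene body. It was within 50 kb for 14 of them and beyond 100 kb for 8. Trim62 had a summit of 23.1-fold 70.0 kb away and Trim54 one of 13.1-fold at 42.4 kb. Trim32 was the most isolated, at 1745 kb.

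Of the 23 peaks at Trim promoters, 13 had a GC content above 60% within 100 bp of the summit. The median was 63.7%, beside 62.7% for high-confidence peaks at the promoters of all protein-coding genes.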
